A study of Homo sapiens with 21 samples.

Results

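C-type lectins, leukocyte immunoglobulin-like receptors (LILR), sialic acid-binding lectins (SIGLEC) and the receptors for the constant part of IgG (FCGR) were followed through 21 RNA-seq libraries of OCI-AML5, a human acute myeloid leukemia cell line. Members were the protein-coding genes whose symbols read CLEC, LILRA, LILRB, SIGLEC or FCGR1 to 3 followed by the letters and digits of the family, together with CD33 and CD22, and without CLEC4C and LILRA4. This gave 59 genes of 58174 gene identifiers, of which 30 were CLEC, 9 LILR, 14 SIGLEC (CD33 and CD22 among them) and 6 FCGR genes. The cells were kept in DMSO, the vehicle, or in UM171, a small molecule used to expand blood stem cells in culture, at 500 nM by the labels (the study's own text gives another dose). Each of the 7 groups had 3 libraries. Of these, 5 groups formed a time course, namely DMSO and UM171 after 6, 24, 48 and 72 h, and the other two held sgEPCR cells after 24 h in either medium. The sgEPCR cells were made with CRISPR against PROCR, the gene of the endothelial protein C receptor (EPCR), and the labels call them both a null clone and a knockdown, whereas the study writes of clones in the plural. The cells of the time course are called control cells here, and their DMSO libraries carry a 72 h label, so only UM171 at 72 h matched them in time. Their labels name no guide, while the study describes its wild-type comparison cells as carrying sgAAVS1, a guide against a safe-harbor site, so whether the control cells carried any guide is not known. At 6, 24 and 48 h treatment and hours in culture cannot be told apart, nor can genotype and hours in DMSO. Only the sgEPCR cells are labelled a clone, so in every comparison between the genotypes the CRISPR edit and clonal origin cannot be told apart. No label says which libraries came from separate cultures, so the p-values measure the spread between these libraries, which may be technical.

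Most of these receptors sit on myeloid or other immune cells and read sugars, sialic acid, MHC class I and antibodies. Many carry an ITIM, a tyrosine motif in the cytoplasmic tail that recruits the phosphatases SHP-1 and SHP-2 and dampens signaling. Others carry an ITAM or hemITAM of their own, or pair with an adaptor such as DAP12 or the Fc receptor gamma chain, and then signal through the kinase SYK. By general knowledge of these proteins, 19 members were put down as inhibitory with an ITIM, 5 as activating with their own motif, 13 as activating through an adaptor and 22 as other.

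Of the 59 members, 25 lay on chromosome 19, 13 on chromosome 12, 7 on chromosome 1 and 14 elsewhere. RefSeq promoters (GRCh38.p14, 250 bases before to 50 bases after the start) were at hand for 45 members. The purine-rich box GAGGAAG, which factors of the ETS family such as PU.1 bind, was searched on both strands and occurred in 12 of these 45 promoters (26.7%) and in 13.6% of all 35116 promoters. TGANTCA, bound by AP-1, occurred in 5 of the 45 and in 7.71% of all. GGGA followed by any base and TTTCC, a form of the NF-kB site, was in 0.56% of all and in no member. Shown here are the promoters of both Fc receptors with low values at 24 h (FCGR1A, chr1:149782444-149782743, and FCGR2A, chr1:161505207-161505506), of the member with the greatest fold rise (CD22, chr19:35328937-35329236) and of the member that fell at 24, 48 and 72 h (LILRB4, chr19:54662735-54663034), all on the plus strand. Capitals mark GAGGAAG, read here as its reverse complement.
FCGR1A: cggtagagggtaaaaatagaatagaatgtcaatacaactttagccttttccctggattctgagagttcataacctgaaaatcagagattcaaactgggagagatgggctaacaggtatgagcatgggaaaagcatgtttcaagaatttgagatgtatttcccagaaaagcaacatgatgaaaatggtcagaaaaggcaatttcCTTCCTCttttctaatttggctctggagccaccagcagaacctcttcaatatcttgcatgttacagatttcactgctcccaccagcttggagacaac
FCGR2A: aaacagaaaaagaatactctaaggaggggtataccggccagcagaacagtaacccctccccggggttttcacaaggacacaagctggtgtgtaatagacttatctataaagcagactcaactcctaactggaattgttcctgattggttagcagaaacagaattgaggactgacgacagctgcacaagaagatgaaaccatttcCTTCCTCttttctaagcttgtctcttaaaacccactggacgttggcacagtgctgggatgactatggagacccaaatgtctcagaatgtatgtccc
CD22: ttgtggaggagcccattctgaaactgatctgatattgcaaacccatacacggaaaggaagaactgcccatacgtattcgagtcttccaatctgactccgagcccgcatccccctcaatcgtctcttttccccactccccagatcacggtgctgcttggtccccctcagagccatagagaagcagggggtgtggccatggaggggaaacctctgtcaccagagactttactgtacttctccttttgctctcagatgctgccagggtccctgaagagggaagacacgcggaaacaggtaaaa
LILRB4: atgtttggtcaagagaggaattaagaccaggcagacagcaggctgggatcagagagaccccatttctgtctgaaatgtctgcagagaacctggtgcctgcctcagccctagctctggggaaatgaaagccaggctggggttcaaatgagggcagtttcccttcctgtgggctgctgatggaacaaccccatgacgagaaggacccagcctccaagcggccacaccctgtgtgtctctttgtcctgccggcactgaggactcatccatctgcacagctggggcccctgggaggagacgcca
FCGR1A and FCGR2A shared the 20-base run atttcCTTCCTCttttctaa, whose first base lay 52 bases before the start of FCGR1A and 51 before that of FCGR2A. The windows of CD22 and LILRB4 held none of the 3 motifs, nor did that of SIGLEC14, which was also low at 24 h. GAGGAAG was also in the promoters of CD33, CLEC12A, CLEC16A, CLEC5A, SIGLEC12, FCGR2B and LILRB1. It was in those of CLEC20A, CLEC4F and FCGR3A too, which had too few counts to be tested. Of those tested, LILRB1 was just past 2-fold higher at 24 h (2.01-fold, adjusted p = 0.0039 in edgeR's test). FCGR2A was lower there, and the changes of the others, FCGR1A among them, stayed under 2-fold. A match describes the sequence and does not show that a factor was bound.

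The libraries held 24.3 to 51.5 M counts (median 33.9 M). In 2 sgEPCR libraries, replicate 1 in DMSO and replicate 2 in UM171, mitochondrial genes took 35.9% and 32.2% of the counts, against 7.73% to 13.5% in the other 19. Transcripts per M (TPM), which divide by transcript length, are low for most members in both. Several results with sgEPCR cells are therefore also given as counts per M scaled by TMM (scaled CPM) or without both libraries. Levels of PROCR, LILRB3 and the genes outside the rule, and all sums, are in TPM alone and include both libraries. PROCR, the targeted gene, had a TPM of 3.37, 4.30 and 3.38 in DMSO and of 48.5, 48.5 and 48.5 after 24 h of UM171 in control cells, against 2.30, 4.53 and 3.93 in DMSO and 8.94, 4.23 and 8.41 in UM171 in sgEPCR cells. PROCR was lower in sgEPCR than in control cells in UM171 (log2 fold change −2.63, SE 0.12, adjusted p = 1.92e-07). In DMSO it was somewhat higher in sgEPCR cells by the count fit (0.42, SE 0.12, adjusted p = 0.0224). The counts alone cannot show whether the protein was lost. The myeloid genes PTPRC, SPI1 and LYZ were at 102 TPM or more, 95.7 or more and 357 or more in every library, while CD14, a monocyte marker, stayed at 0.42 TPM or less and KIT, a progenitor marker, at 0.25 or less. Along the time course the myeloid integrin gene ITGAM was called higher at 48 h and 72 h (log2 fold changes 2.05 and 3.02), LYZ at 72 h (1.19) and CD34, a progenitor marker, lower at both (−1.43 and −2.29). Of the markers of other cell types, CD3D of T cells ranged from 0 to 18.8 TPM with CD3E and CD3G at 0.11 or less and CD2 at 0.68 or less. The 1 T cell gene tested was called higher at 24, 48 and 72 h (log2 fold changes 4.05, 5.37 and 5.32) and in UM171 in sgEPCR cells (5.13). The T cell list summed to 0.14 to 0.80 TPM in DMSO and to 13.7 to 19.3 at 48 h. Of the 4 NK cell markers, NCAM1 ranged from 16.9 to 61.7 TPM and NKG7 from 2.68 to 26.2, while KLRD1 and KLRF1 were at 0.25 or less. The NK list summed to 32.6 to 35.7 TPM in DMSO and to 81.3 to 85.6 at 72 h, and NCAM1 was called higher at 48 and 72 h. The erythroid list summed to 0.08 TPM or less, and the epithelial genes KRT8 and CDH1 and the endothelial gene CDH5 were at 0.19 or less, with EPCAM at 0.58, COL1A2 at 0.85 and COL1A1 at 1.31 TPM or less, but PECAM1 ranged from 5.45 to 46.0 TPM. Of the 3 fibroblast or endothelial genes tested, 1 was called higher and 1 lower at 24 h, 2 higher and 1 lower at 48 h, and 2 higher at 72 h. The 1 epithelial gene tested was called higher at 24 and 72 h. The part of these markers in the results was not tested.

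A total of 47 members reached 3 counts, the smallest signal considered, in at least 1 library, and 19 reached it in every library. The 12 others stayed below 3 counts throughout, with CLEC4E, CLEC14A and CLEC2L at 0 in all 21 libraries. A mean of 1 TPM or more in any group was reached by 25 members, of 10 or more by 18 and of 50 or more by 10. The 29 members named below had such a mean or passed a test, and the 30 others had group means of at most 0.733 TPM. These floors cover counting error only.

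In DMSO, FCGR2A, an Fc receptor for IgG complexes with its own ITAM, had the highest level of any member, with 345, 316 and 332 TPM. LILRB4, an inhibitory receptor with ITIMs on monocytic cells, followed with 215, 216 and 220 TPM. CLEC11A, a secreted growth factor, had 197, 199 and 203 TPM. CD33, an inhibitory SIGLEC and antibody target in this leukemia, had 177, 177 and 179 TPM, and FCGR1A, the high-affinity IgG receptor, had 144, 147 and 151 TPM. None of these 5 ranges overlapped in DMSO, so the order was the same in each of the 3 libraries. CLEC12A, an inhibitory lectin, came next with 113 to 122 TPM. CLEC5A, which pairs with DAP12, had 81.0 to 85.3 TPM. SIGLEC14, an activating SIGLEC, had 67.5 to 72.8 TPM, and LILRA2, an activating LILR, had 66.4 to 70.3 TPM, so these last levels overlapped.

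**Figure D1:**
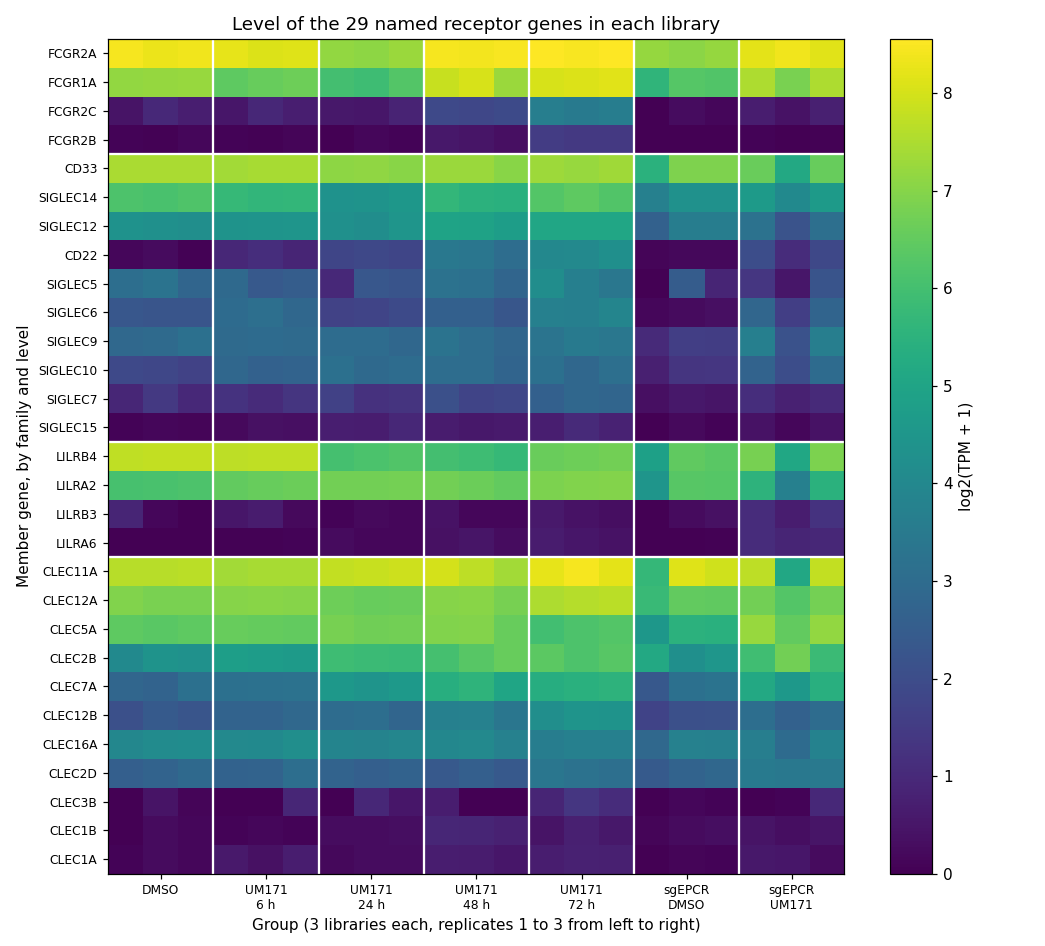
Heat map of log2(TPM + 1) for the 29 named members (rows, by family and level) in the 21 libraries (columns, 3 for each of the 7 groups), with the color scale at the side. FCGR2A, at 316 to 345 TPM in DMSO, is among the brightest rows and is darker at 24 h of UM171, where it is at 137 to 153 TPM.

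A gene was called when its adjusted p in edgeR's quasi-likelihood test was under 0.0001 and its change over 2-fold. All 4 time-course comparisons used the same 3 DMSO libraries and 1 fit of 16575 genes, in which 35 members could be tested and 24 had too few counts. At 6 h 1 member was called higher, CD22 (2.86% of the 35), while 7.03% of all genes tested were called, with 6.78% higher and 0.247% lower. At 24 h 5 members were called higher and 3 lower (22.9% in all), against 13.7% of all genes (9.03% higher and 4.7% lower). At 48 h 11 were called higher and 1 lower (34.3%), against 16.4% of all genes (11.7% and 4.67%). At 72 h 13 were called higher and 1 lower (40%), against 20.8% of all genes (15% and 5.8%). The share of members was thus below that of all genes at 6 h and above it at the later times. The median log2 fold change of the members tested was 0.30, 0.35, 0.83 and 1.04 at 6, 24, 48 and 72 h, against 0.02, −0.01, −0.00 and 0.02 over all genes tested. These shares and medians rest on the members that passed the count filter. At an adjusted p under 0.05 alone, 16, 24, 23 and 28 of the 35 passed, against 62.1%, 69.7%, 72.1% and 75.6% of all genes, so most genes passed that looser limit. CD22, CLEC7A, CLEC2B, SIGLEC10 and SIGLEC15 were called higher at all of 24, 48 and 72 h, and LILRB4 was called lower at the same times. These comparisons share the DMSO libraries, and the share of all genes called at all of these times is not given here. The lasting calls are thus a description of these members only. In bulk RNA, more RNA per cell and more cells of one state cannot be told apart.

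**Figure D2:**
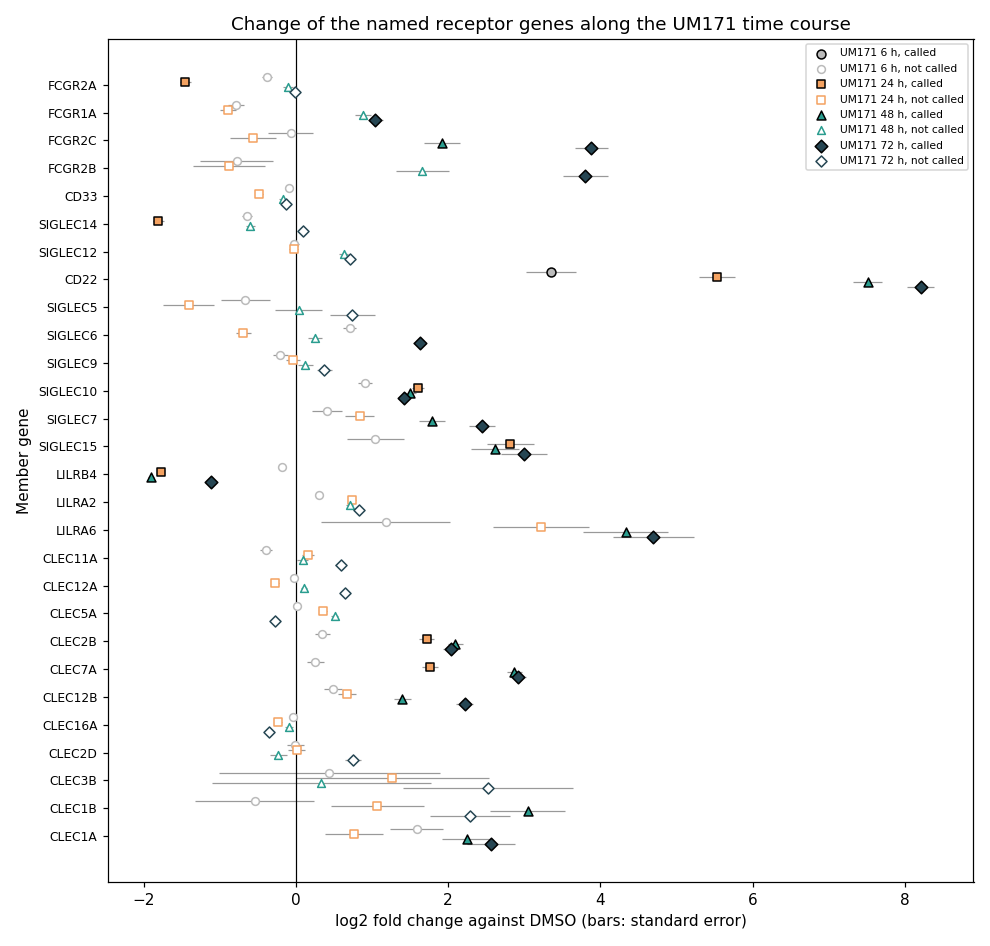
Log2 fold change of each named member that could be tested after 6, 24, 48 and 72 h of UM171, relative to the 3 DMSO libraries, with bars of 1 SE and filled symbols for calls. CD22 reaches 8.21 at 72 h, whereas LILRB4 is at −1.78, −1.91 and −1.11 at 24, 48 and 72 h.

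In TPM, the IgG receptors with the highest levels were lowest at 24 h. FCGR2A had 302, 274 and 280 TPM after 6 h, 142, 137 and 153 after 24 h, 343, 339 and 357 after 48 h and 376, 353 and 370 after 72 h. Only at 24 h was it called, at a log2 fold change of −1.45 (SE 0.07, adjusted p = 5.11e-12), and its 24 h libraries lay below those of every other time. At 48 h and 72 h its log2 fold changes were −0.10 (SE 0.06) and −0.02 (SE 0.06). FCGR1A had 85.7, 94.4 and 101 TPM after 6 h, 62.5, 58.4 and 76.8 after 24 h, 229, 265 and 153 after 48 h and 264, 277 and 285 after 72 h. The 6 h and 24 h libraries all lay below the DMSO range of 144 to 151 TPM and the later ones above it. Its log2 fold change was −0.79 (SE 0.10) at 6 h and −0.89 (SE 0.10) at 24 h, so in the count fit these times lay close together. At 24 h it was short of 2-fold with all libraries and past it without UM171 24 h replicate 3 (−1.04, adjusted p = 3.03e-08). It was called higher at 72 h (1.04, SE 0.10, adjusted p = 4.76e-08). Both calls depended on the scale, since limma on log2(TPM + 1) called it lower at 24 h (−1.16, adjusted p = 1.41e-05) and did not call it at 72 h (0.90, adjusted p = 0.000105). The 24 h libraries were not tested against the 6 h or 72 h libraries.

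FCGR2C, an activating receptor made by fusion of the neighboring genes, and FCGR2B, the inhibitory IgG receptor, were both low in DMSO. FCGR2C had 0.36, 0.98 and 0.65 TPM in DMSO, 2.69, 2.51 and 2.79 at 48 h and 11.7, 10.6 and 11.5 at 72 h. It was called higher at 48 h (log2 fold change 1.92, SE 0.24, adjusted p = 1.36e-06) and at 72 h (3.88, SE 0.21, adjusted p = 2.86e-11). FCGR2B had 0.05, 0.03 and 0.11 TPM in DMSO and 1.86, 1.67 and 1.68 at 72 h, where it was called higher (3.80, SE 0.30, adjusted p = 2.82e-09), and without DMSO replicate 3 it was also called at 48 h (2.38, adjusted p = 3.20e-05). Neither range at 72 h met that of DMSO. Because FCGR2A, FCGR2B and FCGR2C are near-identical in long stretches, reads between them were split by estimation, and the posterior SD of the estimated count was 20.7% of its mean for FCGR2B and 9.70% for FCGR2C. FCGR3A and FCGR3B, the low-affinity receptors of NK cells and neutrophils, had group means of at most 0.0967 and 0.01 TPM.

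Among the inhibitory SIGLECs, CD22, a receptor best known from B cells, started near 0. It had 0.11, 0.20 and 0.04 TPM in DMSO, 0.94, 1.16 and 0.84 after 6 h, 2.46, 2.66 and 2.47 after 24 h, 9.65, 9.17 and 7.42 after 48 h and 14.9, 15.2 and 18.4 after 72 h. No library of any time overlapped with that of another, and the level was higher at each later time. The DMSO libraries held 7 counts of CD22 in all, with at most 3 in any library, against 75 at 6 h and 2275 at 72 h. Per total count this was a ratio of 12.1 after 6 h (95% counting interval 5.60 to 31.2), 49.995 after 24 h (24.0 to 125), 193 after 48 h (93.7 to 482) and 328 after 72 h (159 to 818). The fitted log2 fold change was 3.35 (SE 0.33, adjusted p = 1.96e-07) at 6 h and 8.21 (SE 0.18, adjusted p = 2.82e-16) at 72 h. Of the B cell markers, MS4A1 was at 0 in every library and PAX5 at 0.34 TPM or less, while CD79A ranged from 5.87 to 40.4 TPM. CD79A and PAX5 were both called higher at 24, 48 and 72 h. CD79A had 9.33 to 10.2 TPM in DMSO, 27.3 to 30.6 after 24 h, 35.8 to 40.4 after 48 h and 20.5 to 23.4 after 72 h, so it was highest after 48 h and CD22 after 72 h. In sgEPCR cells, where CD22 was also called higher in UM171, neither of the 2 B cell genes tested was called between UM171 and DMSO. The B cell list summed there to 7.97 to 21.5 TPM in DMSO and to 5.88 to 13.75 TPM in UM171. What share these markers had in the result was not tested.

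**Figure D3:**
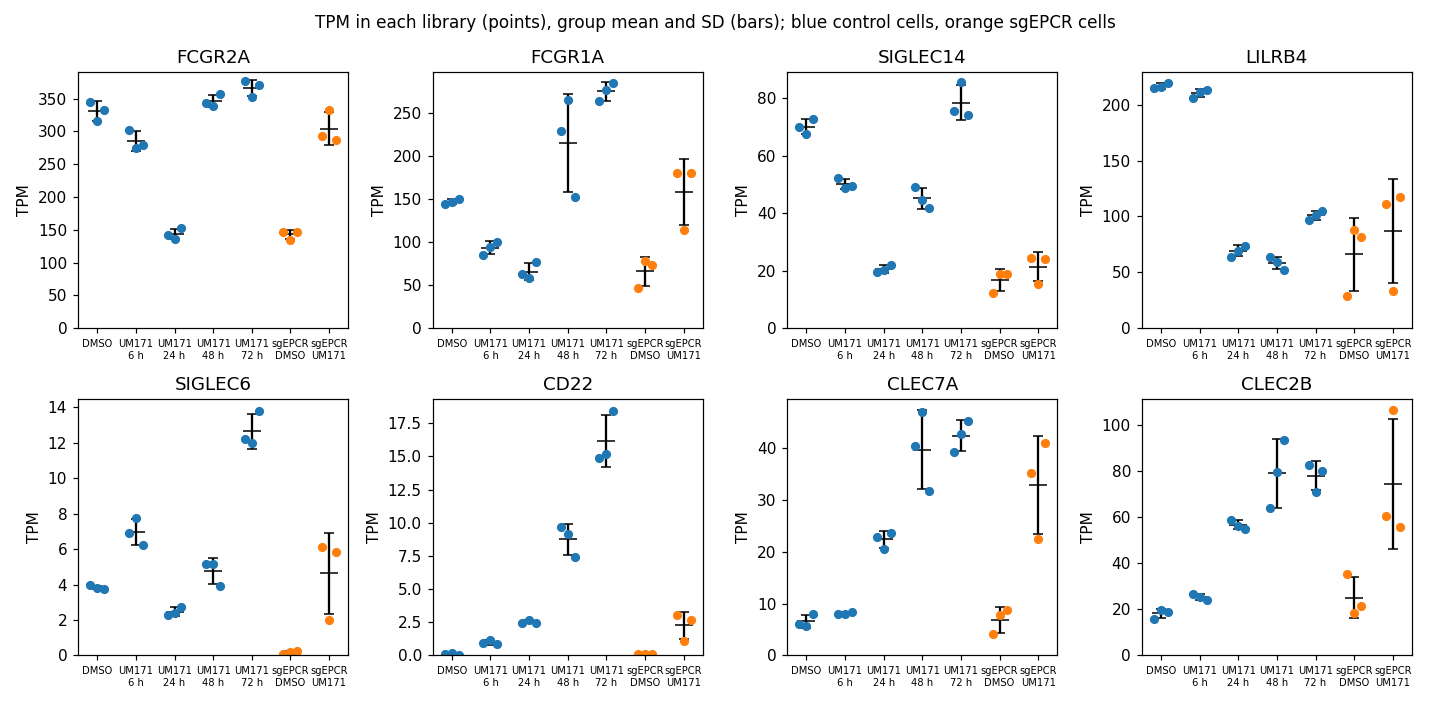
TPM per library (points) with the group mean and SD (bars) for 8 members, 1 panel each, with the 7 groups along the horizontal axis and sgEPCR cells in orange. CD22 is at 0.04 to 0.20 TPM in DMSO and at 14.9 to 18.4 after 72 h of UM171, and SIGLEC6 is at 0.10 to 0.27 in sgEPCR cells in DMSO.

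SIGLEC10, an inhibitory receptor that binds CD24, had 2.74, 2.54 and 2.21 TPM in DMSO and 7.90, 6.68 and 7.11 at 24 h. Its log2 fold changes at 24, 48 and 72 h were 1.60, 1.49 and 1.42 (SE 0.08, 0.09 and 0.09), the largest adjusted p being 8.31e-11. SIGLEC7, an inhibitory receptor of NK cells and monocytes, had 0.89, 1.70 and 0.98 TPM in DMSO and 5.17, 6.29 and 5.90 at 72 h. It was called higher at 48 h (1.79, SE 0.18, adjusted p = 7.77e-08) and at 72 h (2.45, SE 0.17, adjusted p = 5.63e-10). SIGLEC6, another inhibitory member, had 3.95, 3.80 and 3.76 TPM in DMSO, 2.26, 2.37 and 2.76 at 24 h and 12.2, 11.98 and 13.8 at 72 h. It lay below the DMSO libraries at 24 h without reaching 2-fold (−0.69, SE 0.10) and was called higher at 72 h (1.62, SE 0.08, adjusted p = 1.24e-11). CD33, in contrast, stayed between 130 and 179 TPM in all 15 time-course libraries, with log2 fold changes from −0.48 to −0.09. SIGLEC9, a relative of SIGLEC7, had 6.08 to 10.5 TPM in these libraries and SIGLEC12, an inhibitory member, 17.5 to 32.9, and neither was called.

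SIGLEC14 and SIGLEC15 signal through DAP12. SIGLEC14 had 70.2, 67.5 and 72.8 TPM in DMSO, 19.5, 20.3 and 22.1 after 24 h, 49.3, 44.5 and 42.0 after 48 h and 75.6, 85.6 and 74.4 after 72 h. It was called lower at 24 h (log2 fold change −1.81, SE 0.07, adjusted p = 2.97e-13), where its libraries lay below those of every other time. At 72 h its log2 fold change was 0.09 (SE 0.06). SIGLEC14 is almost identical to SIGLEC5, its inhibitory neighbor, in the part that binds sialic acid. The posterior SD of the count was 0.92% of the mean for SIGLEC14 and 31.6% for SIGLEC5, which had 5.96 to 8.67 TPM in DMSO and 1.00 to 4.04 at 24 h and was not called. SIGLEC15, a receptor of osteoclasts and tumor macrophages, had 0.05, 0.11 and 0.08 TPM in DMSO and 0.66, 1.03 and 0.75 at 72 h, with log2 fold changes of 2.82, 2.61 and 3.00 at 24, 48 and 72 h (SE 0.31, 0.32 and 0.30).

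LILRB4 fell from 24 h of UM171 on. It had 206, 211 and 213 TPM after 6 h, 64.1, 69.4 and 73.9 after 24 h, 63.4, 59.4 and 52.1 after 48 h and 96.7, 101 and 105 after 72 h, against 215 to 220 in DMSO. Its log2 fold change was −0.19 (SE 0.04) after 6 h, −1.78 (SE 0.04, adjusted p = 3.18e-15) after 24 h, −1.91 (SE 0.04, adjusted p = 8.52e-16) after 48 h and −1.11 (SE 0.04, adjusted p = 2.65e-13) after 72 h. All 9 libraries from 24 h on lay below the DMSO range. LILRA2 had 66.4, 67.0 and 70.3 TPM in DMSO and 115, 122 and 124 at 72 h, above DMSO in all 12 UM171 libraries, but its log2 fold changes of 0.30 to 0.82 stayed under 2-fold. LILRA6, an activating receptor, had 0, 0.02 and 0.02 TPM in DMSO and 0.58, 0.42 and 0.35 at 72 h. Its counts were 2 in all of DMSO and 63 after 72 h, a ratio per total count of 31.8 (8.45 to 269), and it was called higher after 48 h (adjusted p = 2.07e-06) and after 72 h (adjusted p = 3.67e-07). The outer part of LILRA6 is close to identical to that of LILRB3, an inhibitory receptor with 0 to 0.83 TPM in the time course, so counts between them are uncertain (posterior SD 3.58% and 15.4% of the mean). LILRB1, which binds MHC class I, had group means of at most 0.733 TPM.

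CLEC7A, the beta-glucan receptor Dectin-1 with a hemITAM, and CLEC2B, a ligand of the NK cell receptor NKp80, were called higher at 24, 48 and 72 h. CLEC7A had 6.07, 5.68 and 7.97 TPM in DMSO, 22.8, 20.5 and 23.7 after 24 h, 40.3, 46.8 and 31.6 after 48 h and 39.2, 42.7 and 45.1 after 72 h. Its log2 fold change was 0.26 (SE 0.11) after 6 h, 1.76 (SE 0.10, adjusted p = 1.08e-10) after 24 h, 2.87 (SE 0.10, adjusted p = 1.05e-13) after 48 h and 2.92 (SE 0.10, adjusted p = 5.39e-14) after 72 h. Libraries at 48 h and 72 h overlapped, and both lay above 24 h. CLEC2B had 15.8, 19.9 and 19.1 TPM in DMSO, 58.9, 56.3 and 55.0 at 24 h and 82.9, 70.9 and 80.2 at 72 h. Its log2 fold changes at 24, 48 and 72 h were 1.72, 2.09 and 2.03 (SE 0.10 each), the largest adjusted p being 8.86e-11.

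CLEC12B, an inhibitory receptor with an ITIM, had 3.24, 4.39 and 3.73 TPM in DMSO, 12.2, 12.6 and 9.17 at 48 h and 17.9, 20.5 and 19.9 at 72 h. It was called higher at 48 h (1.40, SE 0.11, adjusted p = 7.23e-09) and at 72 h (2.22, SE 0.11, adjusted p = 6.90e-12). CLEC12A, its neighbor, had 181, 195 and 203 TPM at 72 h against 113 to 122 in DMSO, a log2 fold change of 0.65 (SE 0.04) that stayed under 2-fold. CLEC1B, the platelet receptor CLEC-2, lies on the other strand across the end of CLEC12A and the start of CLEC12B, and whether the counting used strand is not given in the sources used here. CLEC1B had 0, 0.18 and 0.10 TPM in DMSO and 0.89, 0.86 and 0.72 at 48 h, with 6 and 52 counts, a ratio of 8.75 (3.76 to 24.9), and was called higher at 48 h (adjusted p = 2.84e-05), a call that is uncertain for that overlap and was lost without DMSO replicate 3, UM171 48 h replicate 1 or UM171 48 h replicate 2 (adjusted p = 0.000164, 0.000182 and 0.000185). CLEC1A, a relative of CLEC7A, had 0.07, 0.20 and 0.11 TPM in DMSO and 0.61, 0.72 and 0.68 after 72 h, and was called higher after 48 h (2.24, SE 0.33, adjusted p = 9.91e-06) and after 72 h (2.56, SE 0.32, adjusted p = 1.17e-06). The call of CLEC1A at 48 h was lost without DMSO replicate 3 (adjusted p = 0.00016).

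Several lectins with high or steady levels were not called at any time. CLEC11A had 165 to 173 TPM at 6 h and 292 to 345 at 72 h, with log2 fold changes of −0.39 (SE 0.08) and 0.58 (SE 0.08). CLEC5A had 94.97 to 125 TPM at 48 h and 61.7 to 76.0 at 72 h, with log2 fold changes of 0.51 and −0.27 (SE 0.05 each). CLEC16A, an intracellular protein of autophagy that carries the family name only, had 11.4 to 17.8 TPM throughout the time course. CLEC2D, the ligand of the NK cell receptor CD161, had 4.20 to 7.52 TPM up to 48 h and 7.71 to 9.32 at 72 h. CLEC3B, the plasma protein tetranectin, had 0 to 1.55 TPM, and its estimated counts had a posterior SD of 35.9% of the mean.

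Summed over roles, the TPM of the 19 ITIM receptors was 554 to 560 in DMSO, 352 to 354 at 24 h and 555 to 591 at 72 h. That of the 5 receptors with their own ITAM or hemITAM was 323 to 352 in DMSO, 158 to 177 at 24 h and 407 to 428 at 72 h. For the 13 that use an adaptor it was 363 to 379, 289 to 314 and 518 to 561. The 22 members of other roles went from 233 to 247 in DMSO to 299 to 315 and 395 to 440. Within the time course the first 3 sums were thus lowest at 24 h and the last was not. In sgEPCR cells in DMSO the ITIM, own-motif, adaptor and other sums were 137 to 321, 143 to 156, 103 to 220 and 96.6 to 320 TPM. Replicate 1, rich in mitochondrial counts, gave the least of the ITIM, adaptor and other sums there. The ITIM, own-motif and adaptor sums each rest on a few high members. These are LILRB4, CD33 and CLEC12A in the first sum, FCGR2A in the second and FCGR1A, CLEC5A, LILRA2 and SIGLEC14 in the third.

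In sgEPCR cells, 28 members could be tested in a fit of 12 libraries and 15901 genes. After 24 h of UM171, 8 of the 28 were called higher than in DMSO (28.6%, against 10.3% of all genes, 6.99% higher and 3.33% lower), with a median log2 fold change of 1.29 against −0.01 over all genes. Here and in the other comparisons with sgEPCR cells, shares and medians rest on members that passed the count filter. A gene can pass it through a single group where its counts are high. At an adjusted p under 0.05 alone 23 members passed, 4 of them lower, against 52.1% of all genes. The 8 were CD22, SIGLEC10, SIGLEC6, SIGLEC9, CLEC5A, FCGR1A, LILRA6 and CLEC7A. These and the other calls of the 4 comparisons with sgEPCR cells, 19 in all, were also made without the 2 libraries rich in mitochondrial counts. CLEC7A had 7.96, 7.38 and 7.75 scaled CPM in DMSO and 39.7, 47.2 and 40.2 in UM171 (2.46, SE 0.13, adjusted p = 1.30e-07), and its TPM was 4.07, 7.88 and 8.67 against 35.2, 22.4 and 40.9. CD22 rose from at most 4 counts per library in DMSO to at least 49 in UM171, a ratio per total count of 28.3 (14.7 to 62.7). LILRA6 had 1 count over the 3 DMSO libraries and 153 over those in UM171, a ratio of 150 (26.4 to 5945). LILRB3, with which it shares sequence, had 1.14, 0.61 and 1.38 TPM in UM171 against 0, 0.20 and 0.31 in DMSO and was not called (adjusted p = 0.00364). Without sgEPCR DMSO replicate 2 the calls of FCGR1A and SIGLEC9 were lost (adjusted p = 0.000117 and 0.00012), and without replicate 3 those of FCGR1A, SIGLEC9 and LILRA6 (0.000119, 0.000121 and 0.000137), leaving 5. Without replicate 1, LILRA2 was called lower (−1.06, adjusted p = 1.95e-05).

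SIGLEC6 had the largest difference between the genotypes' responses among the 28 members. In DMSO it had 0.10, 0.19 and 0.27 TPM in sgEPCR cells against 3.95, 3.80 and 3.76 in control cells, or 0.273, 0.236 and 0.349 against 4.64, 4.13 and 4.19 scaled CPM. In UM171 at 24 h the sgEPCR cells had 6.10, 2.01 and 5.83 TPM and 5.83, 4.29 and 5.82 scaled CPM, against 2.26, 2.37 and 2.76 TPM and 2.53, 2.68 and 2.91 scaled CPM in control cells. On the scaled CPM the groups did not overlap in either medium and lay in opposite order. The log2 fold change of UM171 was 4.18 (SE 0.20, adjusted p = 6.28e-08) in sgEPCR cells, and that of sgEPCR against control cells in DMSO was −3.88 (SE 0.20, adjusted p = 5.99e-07). The difference between the responses to UM171, sgEPCR minus control, was 4.86 on the log2 scale (SE 0.25, adjusted p = 3.80e-07).

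In DMSO 3 of 28 members were called lower in sgEPCR than in control cells (10.7%, against 2.84% of all genes, 1.43% higher and 1.41% lower), namely SIGLEC6, LILRB4 and SIGLEC14. LILRB4 had 28.5, 88.3 and 81.4 TPM, or 91.6, 97.3 and 94.8 scaled CPM, against 246, 240 and 242 scaled CPM in control cells (−1.36, SE 0.08, adjusted p = 9.25e-07). SIGLEC14 had 12.3, 18.9 and 18.9 TPM, or 36.5, 25.0 and 25.7 scaled CPM, against 89.9, 83.4 and 88.9 (−1.59, SE 0.14, adjusted p = 1.97e-05). Neither range overlapped with that of the control cells. The call of SIGLEC14 was lost without any 1 of the DMSO replicates 1, 2 and 3 or the sgEPCR DMSO replicates 2 and 3 (adjusted p from 0.000133 to 0.000187). Control cells after 24 h of UM171 had 67.3 to 73.9 scaled CPM of LILRB4 and 23.9 to 26.8 of SIGLEC14, so these values of LILRB4 lay below those of sgEPCR cells in DMSO and those of SIGLEC14 overlapped with them. The median log2 fold change of the 28 members was −0.61 in DMSO, against 0.00 over all genes. At an adjusted p under 0.05 alone 14 members passed with all 12 libraries, all lower, against 33.7% of all genes. That uniform direction depended on the 2 libraries rich in mitochondrial counts. Without them CLEC11A (0.51, adjusted p = 4.42e-07), LILRA2 (0.34, 5.6e-06) and CLEC2B (0.30, 0.00148) passed as higher. The other named members that passed without them were lower.

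In UM171 3 of 28 members were called between sgEPCR and control cells (10.7%, against 4.46% of all genes, 2.67% higher and 1.79% lower). FCGR1A was higher, with 115, 109 and 112 scaled CPM against 39.9, 36.7 and 52.5 (1.39, SE 0.12, adjusted p = 7.55e-06), and 181, 115 and 180 TPM against 62.5, 58.4 and 76.8. SIGLEC12 was lower, with 10.1, 8.08 and 9.13 scaled CPM against 23.4, 21.9 and 25.5 (−1.37, SE 0.10, adjusted p = 3.72e-06). LILRA2 was lower, with 36.4, 28.1 and 35.9 scaled CPM against 89.2, 91.1 and 94.2 (−1.45, SE 0.13, adjusted p = 1.17e-05). In these 3 genes the groups did not overlap. Of the named members, LILRB3 (4.16, adjusted p = 0.00197), LILRA6 (2.94, 0.00018), FCGR2A (1.34, 0.00215) and CLEC2D (1.12, 0.00389) were higher past 2-fold but not called. SIGLEC15 was lower in the same way (−1.36, 0.00383). LILRA6 was called in DESeq2 (2.99, adjusted p = 5.95e-08) and without the 2 libraries rich in mitochondrial counts (2.66, adjusted p = 1.54e-05). Without UM171 24 h replicate 1 the call of FCGR1A was lost (adjusted p = 0.000109), and without replicate 1, 2 or 3 of that group that of LILRA2 (0.000104, 0.000115 and 0.000108), while without sgEPCR UM171 replicate 2 SIGLEC6 was called higher (1.11, adjusted p = 6.87e-05). The median log2 fold change over the 28 members was 0.21, against −0.02 over all genes, and 17 members (43% of all genes) had an adjusted p under 0.05.

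The difference between the 24 h responses, sgEPCR minus control, was called for 5 of 28 members (17.9%, against 7.77% of all genes, 3.6% higher and 4.17% lower), 4 of them higher, and 12 members (45% of all genes) had an adjusted p under 0.05. Beside SIGLEC6 these were FCGR1A (2.06, SE 0.16, adjusted p = 4.72e-06), LILRB4 (1.98, SE 0.11, adjusted p = 4.42e-07) and SIGLEC14 (1.87, SE 0.20, adjusted p = 3.55e-05). LILRB4 went from 91.6 to 97.3 scaled CPM in DMSO to 99.1 to 117 in UM171 in sgEPCR cells, a log2 fold change of 0.21 (SE 0.07), and from 240 to 246 down to 67.3 to 73.9 in control cells. LILRA2 was the member with a lower response (−1.67, SE 0.18, adjusted p = 3.86e-05), with 51.3, 69.6 and 69.2 scaled CPM in sgEPCR cells in DMSO against 36.4, 28.1 and 35.9 in UM171. The calls of SIGLEC14 and LILRA2 were each lost in 10 of 12 fits that left out 1 library (adjusted p up to 0.000228 and 0.000254), all but those without sgEPCR DMSO replicate 1 or sgEPCR UM171 replicate 2, with directions kept. Because the control DMSO libraries carry a 72 h label, this difference and hours in culture cannot be told apart.

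**Figure D4:**
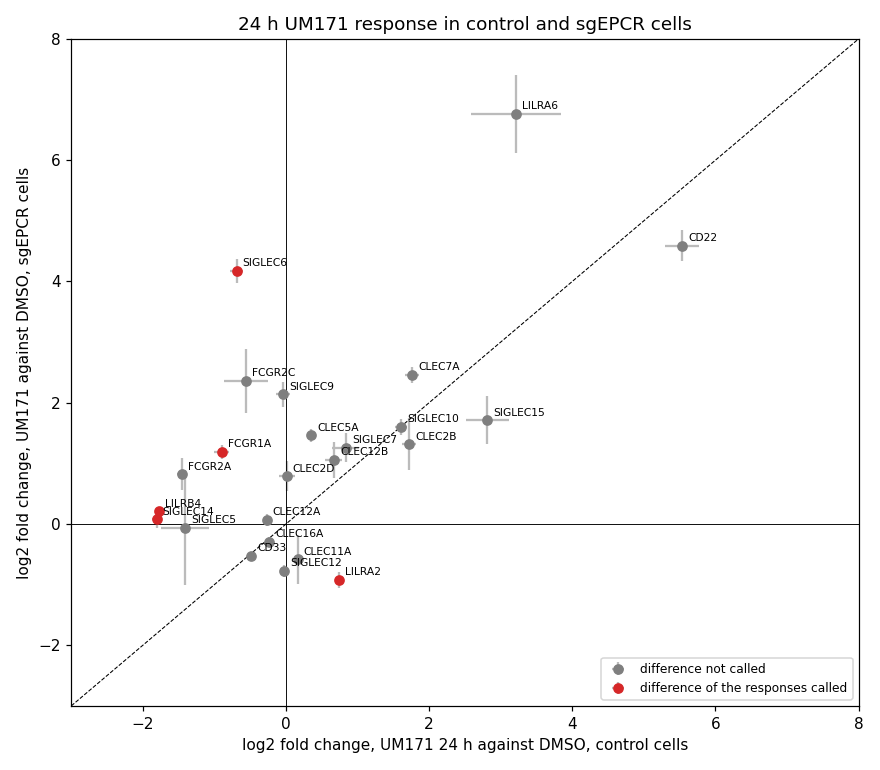
Log2 fold change of UM171 at 24 h against DMSO in control cells (horizontal axis) and in sgEPCR cells (vertical axis) for the named members tested in both fits, with bars of 1 SE and a broken line of equal response. Of the members in red, whose responses differed past the limit, SIGLEC6, FCGR1A, LILRB4 and SIGLEC14 lie above the line and LILRA2 below it.

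FCGR2A was not called in the 4 comparisons with sgEPCR cells by edgeR with TMM on all 12 libraries, and both libraries rich in mitochondrial counts stood apart in it. The call depended on the setting, since total count scaling called it in all 4 comparisons (log2 fold changes 1.01, −1.27, 1.16 and 2.43 in the order above), and DESeq2 between the genotypes in UM171 (1.36, adjusted p = 1.17e-05) and for the difference between responses (2.28, adjusted p = 1.37e-07). It had 274, 146 and 155 scaled CPM in sgEPCR cells in DMSO and 270, 477 and 267 in UM171, the values of those libraries being 274 and 477. Without both, its difference between responses was called at 2.29 on the log2 scale, with log2 fold changes of −1.28 in DMSO and 1.01 in UM171 between the genotypes. SIGLEC9, with 2.24, 2.21 and 2.21 scaled CPM in DMSO and 11.5, 6.45 and 11.3 in UM171 in sgEPCR cells, was also apart in replicate 2 of UM171. Its difference between responses was 2.18 (SE 0.28, adjusted p = 0.000115) with all libraries, short of the limit, and 2.40 without both. With all 12 libraries it was past the limit in DESeq2 (adjusted p = 9.17e-12), with upper quartile scaling (8.82e-05), with no filter (6.03e-05) and with at least 10 counts (9.30e-05). CLEC5A lay near the limit in the same way, with a difference between responses of 1.11 (SE 0.15, adjusted p = 0.000159) that was called in DESeq2 (1.13, adjusted p = 1.11e-09), with upper quartile scaling (1.25, adjusted p = 7.00e-05) and without both libraries (1.13, adjusted p = 1.02e-09). CLEC5A had 101, 79.9 and 82.6 scaled CPM in sgEPCR cells in DMSO and 228, 273 and 224 in UM171, against 135 to 144 and 173 to 189 in control cells. What the mitochondrial share did to these values was not tested.

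Of 21 adaptors, kinases and phosphatases that carry the signals of these receptors, FGR and FES, 2 kinases of the SRC and FES families, were called lower at 24 h (4.7% of all genes lower, 9.03% higher) and CSK, which restrains SRC kinases, at 72 h (−1.13, against 5.8% lower and 15% higher). MALT1, an adaptor below CLEC7A, was called higher in UM171 than in DMSO in sgEPCR cells (1.14, against 6.99% higher and 3.33% lower). No gene of this list was called at 6 h or 48 h, against 7.03% and 16.4% of all genes. None was called between the genotypes in DMSO, in UM171 or for the difference of responses, against 2.84%, 4.46% and 7.77% of all genes. PTPN6, the gene of SHP-1, had 136 to 321 TPM over all libraries, LYN 77.7 to 189 and SYK 27.5 to 137. The adaptor genes TYROBP (DAP12) and FCER1G (gamma chain) had 0.57 to 7.86 and 0.28 to 3.85 TPM. On the ligand side, of 20 tested genes that make or remove sialic acid, 2 were called after 6 h, 6 after 24 h, 5 after 48 h and 7 after 72 h, each of them higher, against 6.78%, 9.03%, 11.7% and 15% of all genes called higher. The count at 6 h is thus close to the share of all genes. The sialyltransferase ST6GALNAC3 had log2 fold changes of 2.51, 3.44 and 4.08 at 24, 48 and 72 h (SE 0.08 each), and GNE, the first enzyme of sialic acid synthesis, of 1.09, 1.53 and 1.55 (SE 0.05 each).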

How the data were processed

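Poly(A) RNA of OCI-AML5 cells was read as a stranded mRNA library. The deposited expected counts of each gene came from RSEM and are not normalized, reads that fit several genes being split by estimation, and the deposited TPM were scaled by the authors for length and to the same total in each library. The submitters' processing notes name CASAVA 1.8.2, Trimmomatic 0.35, STAR 2.5.1b and RSEM 1.2.28. RSEM's posterior SD of each count, also deposited, was used to mark genes whose reads are hard to assign.

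After rounding, the expected counts of all genes were tested with edgeR 4.0.16 (R 4.3.3; TMM, filterByExpr, glmQLFit and glmQLFTest, no replicate block), in 1 fit of 15 time-course libraries and 1 fit of 12 genotype libraries. P-values were adjusted by Benjamini-Hochberg over all genes tested, and a gene was called at an adjusted p under 0.0001 and over 2-fold, the limits used by the study. The SE is the log2 fold change over the square root of F. Scaled CPM are counts per M of the TMM-scaled library. Counting intervals are exact, at 95%, and cover counting error only. Alternatives were DESeq2 1.42.0, upper quartile and total count scaling, no filter or at least 10 counts, limma 3.58.1 on log2(TPM + 1) or log2(TPM + 0.1), all 21 libraries in 1 fit, the replicate block, other limits, and fits without single libraries or without those over 20% mitochondrial counts. Named with values were members with a mean of at least 1 TPM in any group or a call in any of 8 comparisons. Genes of the signaling, related-receptor, sialic acid and cell marker lists were named when called or at a mean of at least 50 TPM, with defining markers added. A gene of the marker lists is not reported here. The members and lists were chosen with earlier results of these data known. The scripts were tested on simulated data.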

Additional observations from a re-analysis of the deposited data

Results flagged for a closer look

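For 5 members the response to UM171 at 24 h differed between sgEPCR and control cells by a test of the difference itself (edgeR's quasi-likelihood interaction, sgEPCR minus control, on the log2 scale). SIGLEC6 differed by 4.86, FCGR1A by 2.06, LILRB4 by 1.98, SIGLEC14 by 1.87 and LILRA2 by −1.67. In SIGLEC6, LILRB4 and SIGLEC14 the sgEPCR libraries already differed from control cells in DMSO, where both groups carry different time labels, so the starting level and the response enter the same difference. FCGR1A was also lower in sgEPCR cells in DMSO, short of the limit (−0.68, adjusted p = 0.00114), so its starting level enters as well, and in UM171 it was called higher. LILRA2 was at 0.22 in DMSO (adjusted p = 0.221) and was called lower in UM171. Its starting level depended on the setting. Without the 2 libraries rich in mitochondrial counts it was higher in sgEPCR cells in DMSO (0.34, adjusted p = 5.6e-06), and with total count scaling it was at −0.0028. No sample-by-sample check of distance was made, because each group held 3 libraries.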

How the results depend on the processing

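All 54 calls of a member in a comparison kept their direction in all 1348 values under an alternative, and 130 of 3904 values of uncalled members changed sign, none of a size over 0.88 with the settings reported. DESeq2, upper quartile scaling and no filter kept all 54 calls, total count scaling 44, limma on log2(TPM + 1) 24 and on log2(TPM + 0.1) 34, all 21 libraries in 1 fit 52 (without CLEC2B at 24 h and CLEC1A at 48 h), and at least 10 counts all 36 it could test. Depth limits the members with few counts, of which 23 were tested in neither fit and 12 stayed below 3 counts in every library.

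Members called at 6 h (1 as reported) were 2 with upper quartile scaling, 2 with total count scaling, 0 with at least 10 counts (edgeR; 13 at an unadjusted p under 0.05), 0 with limma on log2(TPM + 1) (17 at that p) and 2 on log2(TPM + 0.1). With an adjusted p under 0.05 and no minimum fold they were 16 at 6 h, 24 at 24 h, 23 at 48 h, 28 at 72 h, 23 for UM171 in sgEPCR cells, 14 and 17 between the genotypes in DMSO and in UM171, and 12 for the difference of responses. With an adjusted p under 0.0001 and no minimum fold they were 7 at 6 h and 15 at 24 h (8 as reported). With at least 10 counts they were 7 at 48 h (12 as reported), 9 at 72 h (14) and 5 for UM171 in sgEPCR cells (8), where fewer members were tested. With limma on log2(TPM + 1) they were 7 at 48 h, and 0 in the 4 sgEPCR comparisons (18, 16, 13 and 13 at an unadjusted p under 0.05, in the order above). On log2(TPM + 0.1) they were 2 for UM171 in sgEPCR cells and 0 in the other 3 (16, 11 and 13). For the genotypes in UM171 (3 as reported, 1 higher and 2 lower) they were 7 with DESeq2 (5 and 2), 1 with total count scaling (higher), 6 with all 21 libraries (4 and 2) and 6 without the libraries over 20% mitochondrial counts. With upper quartile scaling the split was 2 higher and 2 lower. For the difference of responses (5, of which 4 higher) they were 8 with DESeq2, 3 with total count scaling (all higher), 8 with all 21 libraries and 8 without those 2 libraries. For the genotypes in DMSO (3) they were 5 without those 2 libraries. For these changes the cause was not tested. Leaving out each library gave 1 to 1 at 6 h, 8 to 9 at 24 h, 11 to 12 at 48 h, 14 to 14 at 72 h, 5 to 9 for UM171 in sgEPCR cells, 2 to 4 and 1 to 4 between the genotypes in DMSO and in UM171, and 3 to 7 for the difference.

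Same-numbered libraries deviated with correlations from −0.08 to 0.08 over 30 pairs of the time course and from −0.61 to 0.45 over 18 pairs of the genotype fit, where the extremes came from sgEPCR cells in DMSO and UM171 (−0.61, −0.60 and 0.45 for numbers 1, 2 and 3). As these did not all lie above 0.1, the numbers were not taken to pair the libraries. In sgEPCR cells, DMSO replicate 1 and UM171 replicate 2, both rich in mitochondrial counts, correlated at 0.69. The correlations in sgEPCR cells thus cannot show whether libraries of the same number shared a culture. With the replicate block 37 of 54 calls were kept, and members called were 2 for UM171 in sgEPCR cells and 0 between the genotypes in DMSO, in UM171 and for the difference of responses (edgeR; 11, 13 and 12 at an unadjusted p under 0.05).

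Over all genes, the count called for the difference of responses (1236) was 2426 with all 21 libraries, 2571 with DESeq2, 424 with total count scaling, 29 and 8 with limma (pseudocounts 1 and 0.1) and 0 with the block. The same settings gave 987, 1066, 207, 12, 3 and 0 for the genotypes in DMSO (452) and 1364, 1484, 296, 58, 21 and 0 in UM171 (709). For UM171 in sgEPCR cells (1642) they were 2509 with all libraries, 2540 with DESeq2, 270 and 306 with limma and 114 with the block. With limma on log2(TPM + 1) the time course gave 587, 1262, 1638 and 2263 at 6, 24, 48 and 72 h. Total count scaling moved the median log2 fold change of all genes to 0.20 at 6 h, 0.16 for UM171 in sgEPCR cells, −0.25 and −0.13 between the genotypes in DMSO and in UM171, and 0.12 for the difference.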

Other observations

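Receptors close to these families but outside the naming rule were followed in a list of 27 genes, 20 of which could be tested in the time course and 18 in the genotype fit. At 24 h 2 were called higher and 4 lower (9.03% and 4.7% of all genes), at 48 h 4 higher (11.7%), and at 72 h 11 higher (15%), with medians of the log2 fold change of −0.38, 0.64 and 1.198 against −0.01 to 0.02 over all genes. OLR1, a lectin receptor of oxidized lipoprotein on chromosome 12, had 50.7, 51.0 and 53.1 TPM in DMSO and 5.62, 5.50 and 7.42 at 24 h (log2 fold change −3.09, SE 0.09, adjusted p = 1.57e-14). FCER2, the low-affinity IgE receptor, had 67.1, 69.4 and 66.9 TPM in DMSO, 28.5, 24.8 and 32.9 at 24 h and 155, 170 and 157 at 72 h, and was called lower at 24 h (−1.30, SE 0.07) and higher at 72 h (1.17, SE 0.06). KLRG1, an inhibitory lectin of lymphocytes, had 8.94, 10.3 and 8.99 TPM in DMSO and 36.7, 36.9 and 38.4 at 24 h (1.97, SE 0.07).

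In sgEPCR cells 8 of the 18 were called higher in UM171 than in DMSO and LAIR1, an inhibitory collagen receptor, lower (−1.28, SE 0.08), against 6.99% and 3.33% of all genes. In DMSO 6 were called lower in sgEPCR than in control cells, against 1.41% of all genes. The difference between the responses, sgEPCR minus control, was called higher for 5 (3.6% of all genes), namely OLR1 (5.71, SE 0.35), TREM1 (5.47, SE 0.24), FCER2 (3.59, SE 0.20), CD69 (2.95, SE 0.13) and PILRA (2.92, SE 0.27). OLR1 went from 10.3, 14.7 and 14.5 TPM in DMSO to 112, 83.1 and 106 in UM171 in sgEPCR cells, with no overlap. TREM1, an activating receptor that pairs with DAP12, went from 0.23, 0.84 and 0.75 to 19.2, 11.6 and 20.1 TPM. These comparisons share the control libraries and the time labels of those above.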
